A study of Mus musculus with 12 samples.

Results

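Small nucleolar RNAs (snoRNAs) and small Cajal body RNAs (scaRNAs) were described in 2 kinds of resting mouse lymphocyte, B cells and naive CD4+ T cells. The members were the rows of the expression table whose gene name starts with Snora, Snord or Scarna, which gave 126 of 41128 genes. Of these, 38 carried the name of the H/ACA class (Snora), 79 that of the C/D class (Snord) and 9 were named as scaRNAs (Scarna). The 12 libraries were made from C57BL/6J spleens collected at an age of 6 to 8 weeks, with 3 libraries each from female and male CD43- resting B cells and from female and male CD4+ CD62L+ naive T cells. RNA of pooled animals was freed of ribosomal RNA and sequenced with its strand kept, so the spread between libraries is one between pools. Values are adjusted TPM, a length-corrected share of transcripts that the authors rescaled between libraries, each with a lower and an upper bound. In such bulk samples, fewer cells of a type and less RNA per cell cannot be told apart. Each of the 4 B cell marker genes was higher in the B libraries and each of the 5 T cell marker genes in the T libraries, with a sum of 2220 to 2643 adjusted TPM against 0.896 to 4.91 for the former and 9.76 to 14.1 against 1017 to 1194 for the latter.

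Both classes of snoRNA sit in small protein-RNA particles of the nucleolus and find their targets by base pairing. C/D particles, with the methyltransferase fibrillarin, direct 2′-O-methylation, and H/ACA particles, with the pseudouridine synthase dyskerin, direct pseudouridylation, in both cases mainly of ribosomal RNA. The scaRNAs carry the same boxes but reside in Cajal bodies, where they direct modification of the spliceosomal small nuclear RNAs. A few members, among them Snord118, Snord22, Snord13, the Snord14 family and Snora73, are known for their part in cutting the ribosomal RNA precursor. Most mammalian snoRNAs are trimmed out of introns of a host gene, often one for a ribosomal protein or a noncoding RNA of the Snhg family.

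The sequences below belong to the RNAs on which the results turn, taken from GENCODE M21 (GRCm38) and written 5′ to 3′ as DNA letters. Snora73a (chr4:132352775-132352979, minus strand) and Snora73b (chr4:132352322-132352526, minus strand) are neighbours that shared 96.6% of their bases, with 7 mismatches, so their reads can be shared. Snora78 (chr17:24719676-24719803, minus strand), Snora24 (chr3:123507937-123508066, minus strand), Scarna13 (chr12:105031075-105031349, minus strand) and Snord8 (chr14:52209785-52209894, minus strand) are the 4 that passed the test between B and T cells. Snord15a (chr7:99482785-99482932, minus strand) and Snord15b (chr7:99479563-99479707, minus strand) lie in the same host gene at very unequal levels. Snord22 (chr19:8725866-8725991, plus strand) and Snord17 (chr2:144265979-144266216, minus strand) had the largest SD of the log2 level within groups, and Snord33 (chr7:45126864-45126947, minus strand) stands for the many short C/D RNAs with values near 0. Capitals mark the ACA trinucleotide near the 3′ end of H/ACA RNAs, or the C box (ATGATGA or GTGATGA) and the D box (CTGA) of C/D RNAs where these letters were found.
Snora73a: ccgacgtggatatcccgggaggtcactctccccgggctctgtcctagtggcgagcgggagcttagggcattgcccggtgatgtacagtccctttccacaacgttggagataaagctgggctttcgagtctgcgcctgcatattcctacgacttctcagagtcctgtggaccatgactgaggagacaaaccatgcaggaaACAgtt
Snora73b: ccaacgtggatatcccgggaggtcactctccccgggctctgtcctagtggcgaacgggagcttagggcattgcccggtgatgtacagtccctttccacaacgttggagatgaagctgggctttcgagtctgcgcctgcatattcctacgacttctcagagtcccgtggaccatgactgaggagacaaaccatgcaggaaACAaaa
Snora78: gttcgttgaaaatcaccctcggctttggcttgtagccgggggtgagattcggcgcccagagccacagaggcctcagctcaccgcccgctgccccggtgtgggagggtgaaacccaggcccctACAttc
Snora24: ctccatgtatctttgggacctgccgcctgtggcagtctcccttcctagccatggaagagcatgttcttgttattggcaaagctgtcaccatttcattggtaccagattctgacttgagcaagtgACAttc
Scarna13: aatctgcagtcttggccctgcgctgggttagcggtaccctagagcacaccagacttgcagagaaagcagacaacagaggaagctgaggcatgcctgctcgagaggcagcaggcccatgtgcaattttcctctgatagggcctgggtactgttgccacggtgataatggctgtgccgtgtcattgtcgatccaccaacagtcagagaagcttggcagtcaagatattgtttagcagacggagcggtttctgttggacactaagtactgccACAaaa
Snord8: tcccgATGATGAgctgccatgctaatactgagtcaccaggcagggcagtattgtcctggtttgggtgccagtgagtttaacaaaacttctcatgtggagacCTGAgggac
Snord15a: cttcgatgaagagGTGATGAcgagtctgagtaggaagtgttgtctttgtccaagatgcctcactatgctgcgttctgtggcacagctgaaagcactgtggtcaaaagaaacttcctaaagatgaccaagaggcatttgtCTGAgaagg
Snord15b: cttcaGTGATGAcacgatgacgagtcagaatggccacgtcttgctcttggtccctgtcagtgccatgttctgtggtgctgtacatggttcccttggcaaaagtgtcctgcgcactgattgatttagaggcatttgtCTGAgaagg
Snord22: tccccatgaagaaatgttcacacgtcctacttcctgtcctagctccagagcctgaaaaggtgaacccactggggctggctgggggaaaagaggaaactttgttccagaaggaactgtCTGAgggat
Snord17: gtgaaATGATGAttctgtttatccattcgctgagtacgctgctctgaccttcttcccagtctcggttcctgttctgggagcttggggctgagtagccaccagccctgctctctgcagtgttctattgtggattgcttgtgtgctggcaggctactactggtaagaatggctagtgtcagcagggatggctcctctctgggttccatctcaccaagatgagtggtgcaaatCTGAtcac
Snord33: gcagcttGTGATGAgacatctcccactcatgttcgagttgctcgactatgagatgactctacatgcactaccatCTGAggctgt

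The letters of the boxes mostly went with the H/ACA and C/D names but did not separate them fully. Of the 9 scaRNAs, 4 had the C and D boxes and 4 had ACA in the windows given next. ACA lay in the last 8 bases of 36 of 38 H/ACA RNAs (94.7%) and of 7 of 79 C/D RNAs (8.86%). A C box within the first 25 bases together with a D box within the last 20 was present in 48 of 79 C/D RNAs (60.8%) and in 0 of 38 H/ACA RNAs. The search was on the strand of each RNA, and no match says only that these letters are not in these windows, as for the C box of Snord22. The pair Snord15a and Snord15b shared 66.0% of their aligned bases and Scarna3a and Scarna3b 85.7%. Snord14c and Snord14d differed at 2 bases (97.7% identity), and Snord116l1 and Snord116l2 were identical to each other. In all, 25 members, 11 of them tested below, had another small RNA gene of at least 95% identity over at least 90% of their length, and 54 members lay inside an annotated transcript of another gene, so their values are uncertain where reads could be split.

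The members that reached a level that allowed a test were mostly the longer ones. The condition for a test was a value of at least 1 adjusted TPM in at least 3 libraries. It was met by 39 of 126 members, a share near that of all genes (12520 of 41128). These were 27 of 38 H/ACA RNAs, 6 of 79 C/D RNAs and 6 of 9 scaRNAs. None of the 70 members under 100 nt met the condition. Of the 6 members of 100 to 119 nt only Snord8 did, at 110 nt, against 23 of 35 members of 120 to 139 nt and all 15 longer ones. Among C/D RNAs, 1 of 74 under 120 nt and 5 of 5 longer ones were tested, so class and length cannot be told apart here. The other annotated snoRNA and scaRNA genes of the table went the same way, with 0%, 3.28%, 5.56%, 24.7% and 29.2% tested from the shortest to the longest of the length ranges under 100, 100 to 119, 120 to 139, 140 to 199 and at least 200 nt. Snora31, the member nearest inside the condition, had at least 1 adjusted TPM in 6 libraries with a highest value of 2.00, and Snora69, the nearest outside, reached it in 1 library with 1.30.

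**Figure D1:**
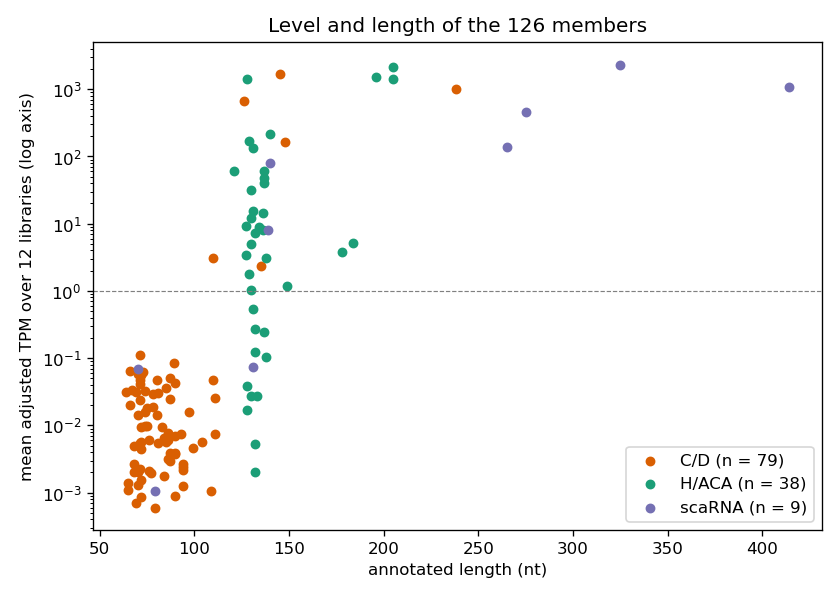
Mean adjusted TPM over 12 libraries (log axis) against annotated length in nt, 1 point per member coloured by class, with a dashed line at 1 adjusted TPM. All 70 members under 100 nt lie under the line, with a highest mean of 0.113, while all 15 members of at least 140 nt lie above it.

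All 3 classes were among the most abundant members. Scarna10, a scaRNA with both C/D and H/ACA parts, had the highest mean level over the 12 libraries, 2328 adjusted TPM, and ranged from 1353 to 3125. Snora73a, Snora74a and Snora78 led the H/ACA class with mean levels of 2124, 1504 and 1414. Snord15b, Snord17 and Snord22 led the C/D class with 1707, 1015 and 664, and Scarna2 and Scarna13 followed Scarna10 among the scaRNAs with 1088 and 463. The nearly identical Snora73b stood at 1409. Neighbours in this order overlapped over the 12 libraries. Snord15b lay above Snord15a in every library, with lowest, median and highest values of 541, 1546 and 4329 against 69.0, 165 and 326. Both lie in the span of Rps3, but only Snord15b lies inside an annotated Rps3 transcript. Reads of Snord15b could thus be split with the host, and the part of this in the difference was not tested. At the other end of the tested members, Snora31 and Snora62 had mean levels of 1.03 and 1.19, and 31 of the 126 members had at least 1 adjusted TPM in all 12 libraries.

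**Figure D2:**
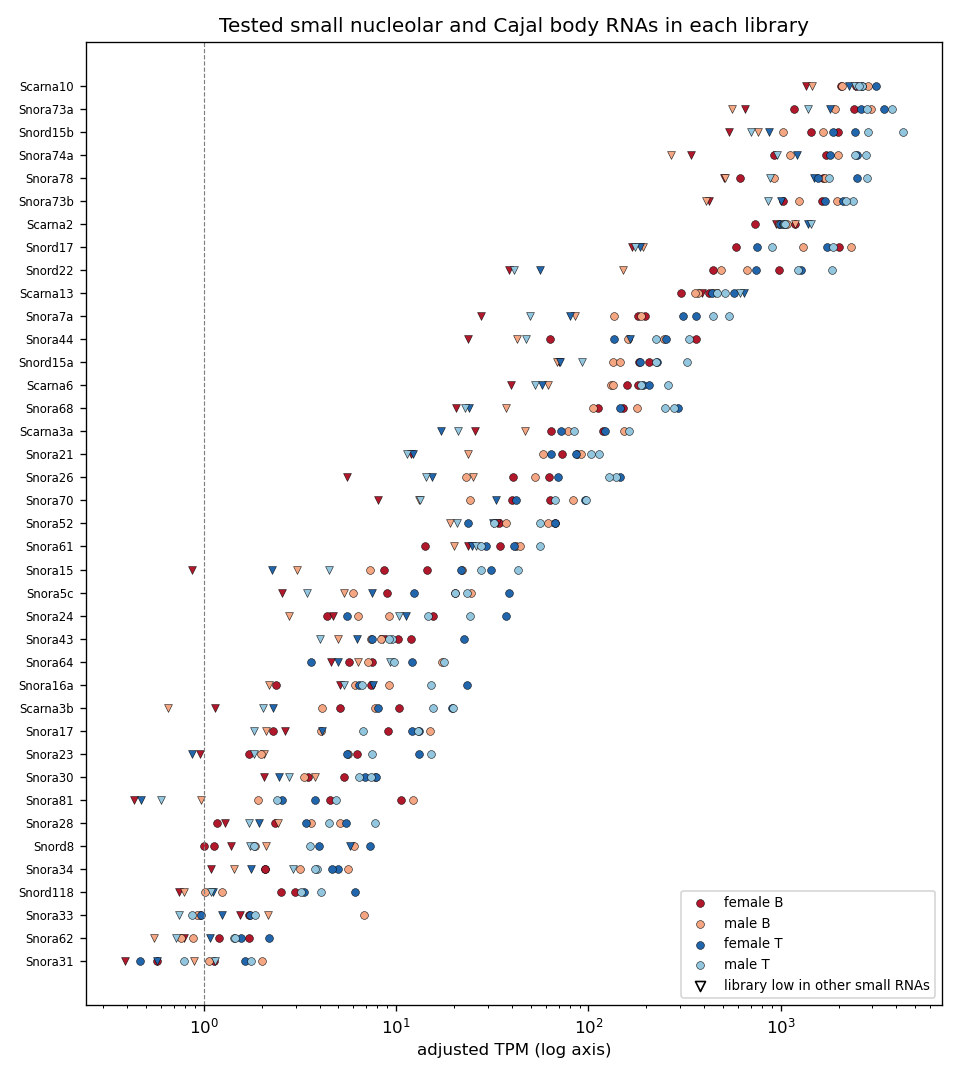
Adjusted TPM (log axis) of the 39 tested members in each of 12 libraries, ordered by mean level and coloured by group, with triangles for the 4 libraries low in other small RNAs and a dashed line at 1. The triangles of most RNAs lie to the left, while for Scarna2 and Scarna13 they lie among or to the right of the circles.

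Libraries of one and the same group differed widely in these RNAs. In each group 1 library stood low, namely female B 3, male B 1, female T 4 and male T 4. They are called low here from other small RNAs, whose median deviation was -0.5 or lower in these libraries. The members present in every library lay at a median of -1.27, -0.92, -0.40 and -0.63 from their own mean log2 level in these 4 libraries, against -0.26 to 1.05 in the other 8. A set of 80 small noncoding RNAs that are no members (46 snoRNA, 5 scaRNA, 23 snRNA and 6 misc_RNA genes under 300 nt) went with them, at -1.49, -0.81, -0.80 and -0.88 against 0.12 to 1.07. Much of this set is thus of the same classes as the members. Protein-coding genes stayed between -0.09 and 0.08 in all 12 libraries. Of the 39 tested members, 30, 32, 29 and 36 had their lowest value of the group in these libraries, and Scarna2 and Scarna13 were among the exceptions in all 4 groups. The summed level of the members ran from 5698 adjusted TPM in female B 3 to 24827 in male T 5. The part of these libraries in each result was not tested beyond the fits without them and with the deviation of the 80 RNAs as a covariate, both added after the values were seen.

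**Figure D3:**
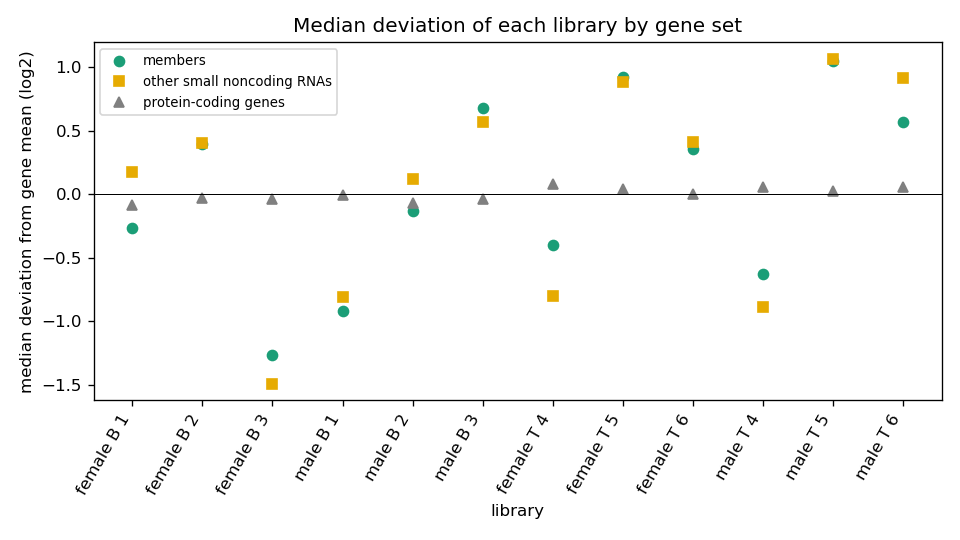
Median deviation from each gene's mean log2 level, per library, for the members, for 80 other small noncoding RNAs and for protein-coding genes. Members and other small RNAs both fall below 0 by at least 0.40 in female B 3, male B 1, female T 4 and male T 4, while protein-coding genes stay near 0.

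The size of this swing differed between members, and those given here were named after their values were seen. Snord22, which takes part in maturation of the small subunit ribosomal RNA, had 38.5, 151, 55.9 and 40.8 adjusted TPM in the 4 low libraries. The other 8 had 442 to 1855, with a median 17.9 times that of the 4. The same ratio of medians was 8.40 for Snord17, 8.19 for Snora15 and 7.14 for Snora21. Scarna2 and Scarna13 did not swing, with ratios of medians of 0.805 and 0.810, and Scarna10 had 1.40. The SD within groups of the log2 level had a median of 0.31 (range 0.23 to 1.04) over the 4 members of at least 260 nt, 1.10 over the 6 of 150 to 259 nt and 0.82 over the 29 shorter ones. Its median over all 39 was 0.91, against 0.13 over the other 12481 tested genes, and within each of 5 ranges of mean level the members had the larger median SD. The deposited bounds were wider too, with a median ratio of upper to lower bound of 6.56 for member values of 1 to 10 adjusted TPM and 1.37 for other genes, 1.88 against 1.14 from 10 to 100, and 1.09 against 1.05 above 100.

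Between B and T cells, 4 members passed the test and all 4 were higher in T cells (41.6% of all genes), namely Scarna13, Snord8, Snora78 and Snora24. They are 10.3% of the 39 tested members, where 73% of all 12520 tested genes passed, and 6 members had an unadjusted p under 0.05 (74.9% of all genes). No member had B and T libraries without overlap, against 53.9% of all genes. The fold change lay below 0, towards T cells, for 33 of 39 members (84.6%, against 56.9% of all genes), with a median log2 fold change (B minus T) of -0.46 for the members and -0.09 for all tested genes. The median of the members ran from -0.29 without male B 1 or female B 3 to -0.72 without male T 4 when 1 library was left out, and was -0.18 with the small RNA covariate and -0.88 with library weights. Under the 3 other scalings of the libraries 31, 27 and 28 members lay below 0, with medians of -0.38, -0.16 and -0.24. The calls of members were then 2 (higher in T cells) with median ratios, 15 (11 higher in T and 4 in B cells) with the same total over all genes and 0 with the same total over protein-coding genes, while those of all genes went from 5208 higher in T and 3926 in B cells to 4311 and 4731, 1982 and 4812, and 2956 and 5680. The 80 other small noncoding RNAs had a median of -0.37, with 65 of them below 0. The median SE was 0.43 for members and 0.08 for all genes.

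Scarna13, a scaRNA of the H/ACA kind, gave the smallest p of the members. Its values were 301, 425 and 389 adjusted TPM in the female B libraries 1 to 3, 453, 369.7 and 359.9 in the male ones, 646, 573 and 440.4 in the female T libraries 4 to 6 and 616, 512 and 468 in the male ones. The B libraries thus lay at 383 ± 53.0 (SD, n = 6) and the T libraries at 543 ± 82.4 (SD, n = 6). Their log2 fold change was -0.50 (SE 0.12, limma adjusted p = 0.0028), and 1 B library (male B 1, with 453) was above the lowest T library (female T 6, with 440.4). It did not follow the low libraries, and without those 4 the change was -0.46 (SE 0.14, limma adjusted p = 0.017) and the B and T libraries no longer overlapped. Rescaled to the same total over protein-coding genes, it was -0.21 (limma adjusted p = 0.12), and the median of all genes then moved from -0.09 to 0.16.

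Snora78, an H/ACA RNA of the noncoding host Snhg9 on the strand opposite to Rps2, had lowest, median and highest values of 505, 771 and 1707 adjusted TPM in B cells against 883, 1678 and 2822 in T cells. The groups overlapped widely, and the log2 fold change was -0.99 (SE 0.38, limma adjusted p = 0.032). Snora24, an H/ACA RNA inside a transcript of Snhg8, had 2.77, 5.51 and 15.5 in B cells against 5.53, 13.0 and 37.5 in T cells, with a log2 fold change of -1.10 (SE 0.43, limma adjusted p = 0.036). It was outside the rule for named genes and was named after its values were seen. Without the 4 low libraries Snora78 kept its call at -0.90 (SE 0.35, limma adjusted p = 0.048), while Snora24 was at -0.97 (SE 0.54, limma adjusted p = 0.14). Either call was also lost when female B 1, female B 3, male B 1, male B 2, female T 5, male T 5 or male T 6 alone was left out, with adjusted p of at most 0.089 in limma. Snord8, a C/D RNA within Chd8, had 1.01, 1.62 and 6.07 in B cells against 1.74, 3.76 and 7.27 in T cells, a change of -0.66 (SE 0.22, limma adjusted p = 0.017), and -0.65 (SE 0.29, limma adjusted p = 0.077) without the 4 libraries. This call averages over sexes whose fold changes differed in sign. Females were at -1.59 (SE 0.31, limma adjusted p = 0.00069) and males at 0.28 (SE 0.31, limma adjusted p = 0.46). The place of Snord8 among the 4 members higher in T cells thus came from the female libraries. Among males the values overlapped, and only male B 3, with 6.07, lay above all male T libraries.

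**Figure D4:**
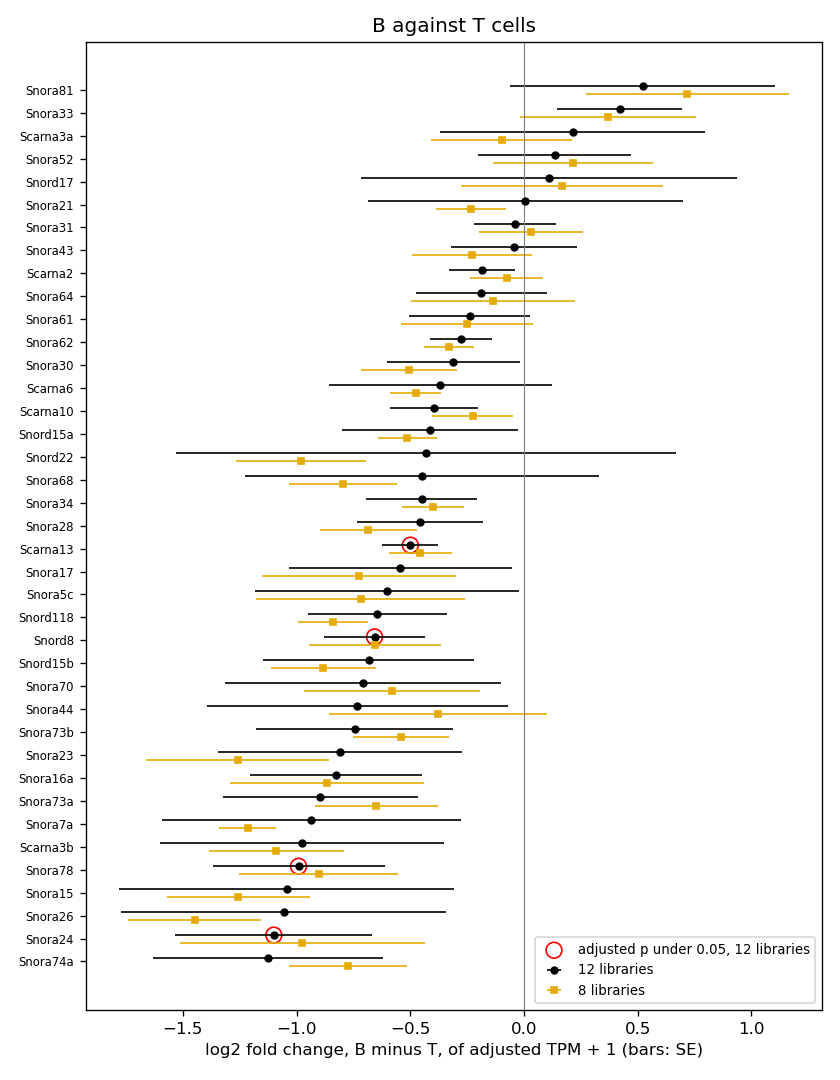
Log2 fold change (B minus T, of adjusted TPM + 1) with its SE for the 39 tested members, over 12 libraries (black) and over the 8 libraries left without the 4 low ones (yellow), with rings on the 4 members of adjusted p under 0.05 over 12 libraries. Most points lie left of 0, and the bars shorten over the 8 libraries for Snora7a, Snora26, Snord15b and Snord22.

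The count depended on the low libraries. Without those 4, which left 2 libraries in each group, 18 members passed the test (46.2%, against 64% of all genes), all higher in T cells (36.2% of all genes). Only Scarna13 and Snora78 of the first 4 were among them. The B and T libraries then did not overlap for 5 members, against 61.8% of all genes, and all 5 (Scarna13, Scarna6, Snora26, Snora7a and Snord118) were higher in T cells (34.7% of all genes). Of these, Snora26 and Snora7a were named after their values were seen. Snora7a, an H/ACA RNA of Rpl32, had 137 to 197 adjusted TPM in these 4 B libraries and 309 to 537 in the 4 T libraries, a log2 fold change of -1.22 (SE 0.12, limma adjusted p = 2.7e-05). Snora26, an H/ACA RNA of the noncoding host Dancr, changed by -1.45 (SE 0.29, limma adjusted p = 0.0021), and Snord118 by -0.84 (SE 0.16, limma adjusted p = 0.0013). With the covariate over 12 libraries, Snora7a was at -0.30 and Snora26 at -0.37 (limma adjusted p = 0.14 for both), and Snord118 kept its call. Both Snora7a and Snora26 lie inside a transcript of another gene. The deviation of the 80 other small RNAs still differed between these B libraries, at 0.12 to 0.57, and these T libraries, at 0.41 to 1.07, and the median change of the 80 was -0.42, against -0.54 for the members. With that deviation as a covariate over 12 libraries, B and T cells are compared at an equal deviation, which is not the plain difference. Then 10 members passed (25.6%, against 73.5% of all genes). Of these, 5 were higher in T cells at an equal deviation (42.1% of all genes), namely Scarna13, Snora74a, Snora78, Snord118 and Snord8. The other 5 were higher in B cells in that sense (31.4%), namely Scarna3a, Snora21, Snora81, Snord17 and Snord22. Snord22 was then at 0.64, where it had -0.98 without the 4 libraries and -0.43 (SE 1.10) over all 12. The plain means of Snora21 (57.4 against 65.1 adjusted TPM) and Snord22 (462 against 866) were lower in B than in T cells. Those of Scarna3a, Snora81 and Snord17 were higher in B cells.

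The RNAs that take part in cutting the ribosomal RNA precursor were described by name. Snora73a, needed for early cleavages and for the small subunit, had lowest, median and highest values of 559, 1542 and 2942 adjusted TPM in B libraries and 1393, 2717 and 3773 in T libraries. Its log2 fold change of -0.90 (SE 0.43, limma adjusted p = 0.077) did not pass, nor did that of its near copy Snora73b, -0.74 (SE 0.43, limma adjusted p = 0.14). Snord118, which has its own promoter and serves the large subunit, was low, at 0.744, 1.13 and 2.99 in B cells against 1.09, 3.27 and 6.08 in T cells, with a log2 fold change of -0.64 (SE 0.31, limma adjusted p = 0.075). For Snord22 the values overlapped across nearly the whole range, from 38.5 to 982 in B cells and from 40.8 to 1855 in T cells. Snord13 and the 4 listed RNAs of the Snord14 family were under the condition, with no value above 0.0129 adjusted TPM. Snord3a was not analysed here.

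Among the 6 tested scaRNAs, Scarna13 alone passed the test. Scarna10 had lowest, median and highest values of 1353, 2073 and 2855 adjusted TPM in B cells against 2254, 2605 and 3125 in T cells, with a log2 fold change of -0.40 (SE 0.19, limma adjusted p = 0.082). Scarna2, a guide of methylation of the U2 small nuclear RNA, had 734, 1027 and 1193 against 994, 1049 and 1441 and a log2 fold change of -0.19 (SE 0.14, limma adjusted p = 0.26), which turned to 0.10 when the libraries were given the same total over protein-coding genes. Scarna6, at 39.8, 133 and 182 against 52.8, 190.1 and 258, had a log2 fold change of -0.37 (SE 0.49, limma adjusted p = 0.51). The related pair Scarna3a and Scarna3b stood at 81.3 ± 47.7 and 4.87 ± 3.77 (SD, n = 6) in B cells and at 79.9 ± 56.9 and 11.2 ± 8.21 in T cells. Their log2 fold changes of 0.21 (SE 0.58) and -0.97 (SE 0.62) had adjusted p of 0.75 and 0.18 in limma.

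The leading H/ACA and C/D RNAs that did not pass also had mostly fold changes below 0. Snora74a, a guide of ribosomal RNA pseudouridylation, had 270.2, 1019 and 1989 adjusted TPM in B cells against 962, 2111 and 2789 in T cells as lowest, median and highest values, with a log2 fold change of -1.13 (SE 0.50, limma adjusted p = 0.061). Snord15b had 541, 1235 and 1994 against 699.9, 2157 and 4329 and a log2 fold change of -0.68 (SE 0.46, limma adjusted p = 0.2). Snord17, the longest C/D member, had 169, 944 and 2309 against 175, 830.2 and 1866, a log2 fold change of 0.11 (SE 0.83, limma adjusted p = 0.91) whose SE was among the largest of the members. The other 2 named H/ACA RNAs were low, Snora33 at 2.35 ± 2.23 in B and 1.23 ± 0.465 in T cells and Snora34 at 2.57 ± 1.64 and 3.67 ± 1.18 (SD, n = 6 each). The remaining members that did not pass ranged from -1.06 for Snora26 to 0.52 for Snora81, with adjusted p from 0.067 to 1 in limma.

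Host genes were set beside the members they contain. A gene of another name on the same strand contained 119 of the 126 members, in 88 distinct host genes, of which 32 members lay in ribosomal protein genes. For 29 members both the RNA and its host were tested, with hosts matched by gene identifier. Snord22, at -0.43, is not among them, because its host Snhg1, at -0.92, has different identifiers in the annotation and among the measured genes. Counted per pair, 23 of 29 hosts passed, 18 of them higher in T cells and 5 higher in B cells (41.6% and 31.4% of all genes), with a median log2 fold change of -0.51 beside -0.45 for the members. With the same total over all genes 6 passed as higher in T and 7 in B cells, and with the same total over protein-coding genes 14 and 8. Both fold changes had the same sign in 19 pairs, 17 of them towards T cells, and Pearson's r across the 29 pairs was 0.07, a description only, since several pairs share a host and all share the libraries. Snx5 was 329.7 adjusted TPM in B cells and 115.3 in T cells (log2 fold change 1.503), while its Snord17 was at 0.11. Rps3, host of Snord15a and Snord15b, was at -1.07 with the 2 RNAs at -0.41 and -0.68, and Tpt1, host of Snora31, at -1.49 with its RNA at -0.04. Rpl32 and Rpl10 lay close to Snora7a and Snora70, at -0.83 beside -0.94 and -0.71 beside -0.71. Snora7a and Snora70 each lie inside an annotated transcript of that host, so reads could be split and the values may not be separate. Many RNAs under the condition lay in a well expressed host. Of them, 81 had a tested host with a median of 72.3 adjusted TPM and up to 2519. Rpl13a, at 1795 in B and 3242 in T cells, holds Snord32a, Snord33, Snord34 and Snord35a, none of which exceeded 0.0236 in any library.

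**Figure D5:**
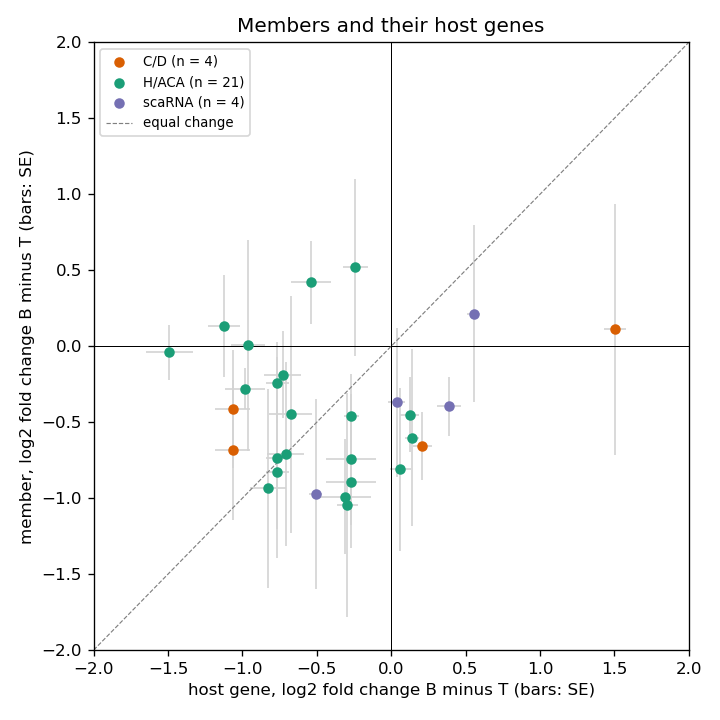
Log2 fold change (B minus T) of 29 members against that of their host genes, each with its SE, coloured by class, with a dashed line of equal change. The lower left part, with both changes towards T cells, holds 17 of 29 points, and Snord17 lies far right at 1.503 for its host Snx5 and 0.11 for itself.

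The proteins of these particles and the factors around them were listed as the rest of the pathway. Of 4 C/D particle proteins, 2 were higher in T cells and 0 in B cells, namely Nop58 at -0.45 (SE 0.07, adjusted p = 6.5e-05) and the methyltransferase Fbl at -0.27 (SE 0.08, adjusted p = 0.0075), while Nop56 was at -0.11 and Nhp2l1 at -0.10. Of 4 H/ACA particle proteins, Nop10 at -0.87 (SE 0.10, adjusted p = 5.3e-06) and the pseudouridine synthase Dkc1 at -0.16 (SE 0.06, adjusted p = 0.02) were higher in T cells and 0 in B cells. Of 12 assembly and maturation factors, 3 were higher in T cells (Nufip1, Znhit3 and Nolc1) and 2 in B cells, namely Tgs1, which trimethylates the cap of some of these RNAs, at 0.58 (SE 0.06, adjusted p = 1.7e-06), and Naf1 at 0.25 (SE 0.07, adjusted p = 0.0061). The Cajal body proteins Coil at -0.25 (SE 0.06, adjusted p = 0.0031) and Wrap53, which brings scaRNAs to that body, at -0.25 (SE 0.06, adjusted p = 0.0035) were higher in T cells, and Smn1 did not pass. Of 10 tested noncoding host genes, 6 were higher in T cells, with Snhg1 at -0.92 (SE 0.13, adjusted p = 4.1e-05) and Gas5 at -0.39 (SE 0.07, adjusted p = 0.00027) among them, and Snhg18 alone was higher in B cells. Of 12 genes of RNA polymerase I, which makes the ribosomal RNA precursor, 9 were higher in T cells and 0 in B cells, with a median log2 fold change of -0.25. These small differences turned with the scaling. With the same total over protein-coding genes the medians were 0.09 for the C/D and 0.09 for the H/ACA particle proteins, 0.20 for the assembly factors and 0.03 for the polymerase I genes, with 1, 1, 0 and 1 of them higher in T cells and 0, 0, 6 and 1 higher in B cells. Of the Cajal body proteins 0 were then higher in T and 1 in B cells, so the calls of Coil and Wrap53 were lost. The noncoding host genes had a median of -0.18, with 4 higher in T and 1 in B cells, and with the same total over all genes a median of -0.11, with 1 each way. All p in this paragraph are from limma, adjusted over all genes, of which 41.6% passed as higher in T cells and 31.4% as higher in B cells. Of the markers of other cells, 4 of 6 tested (Cd68, Sdc1, Cd8a and Lyz2) were higher in B cells, the sum of the 8 listed genes ran from 15.4 to 214 adjusted TPM in B and from 3.43 to 45.7 in T cells, and from 14.9 to 20.9 and 1.12 to 3.96 without the haemoglobin genes. Their part in the results for the members was not tested.

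Between females and males no member passed the threshold. In B cells, 0 of 39 members passed in limma (0.144% of all genes), 1 (Snord8) had an unadjusted p under 0.05 (2.98% of all genes), and the smallest adjusted p was 1. The sexes did not overlap for 3 members in B cells, 7.69% where 7.2% of all genes did the same, namely Snora28 and Snord8, which were higher in males, and Snora43, which was higher in females. In T cells, 0 of 39 passed (0.104% of all genes), Snord8 alone had an unadjusted p under 0.05 (2.55% of all genes), and it alone was without overlap (8.49% of all genes). Fitted within T cells with the library number as a block, 0 passed (0.0399% of all genes) and 8 of 39 had an unadjusted p under 0.05 (6.1% of all genes), with a smallest adjusted p of 0.35. The median SE of these contrasts was 0.61 for members and 0.11 for all genes, so small differences were not detectable at this spread. No member passed for the difference between the sex effects of the 2 cell types in limma (0% of all genes), and 1, Snord8, had an unadjusted p under 0.05 (2.36% of all genes).

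Snord8 had the smallest p for that difference. Its values were 1.13, 1.01 and 1.38 adjusted TPM in female B cells and 2.10, 1.85 and 6.07 in male B cells, but 5.74, 7.27 and 3.96 in female T cells and 1.74, 3.55 and 1.83 in male T cells. Females were thus lower in B cells (log2 fold change -0.88) and higher in T cells (0.99), without overlap in either. The library identifiers also carry a digit of unstated meaning. Female B and male T libraries share the same digit, and male B and female T libraries share another. A difference between the sex effects therefore cannot be told apart from that digit. The difference between the sex effects was -1.87 (SE 0.44, limma adjusted p = 0.69), which did not pass. Snora33 and Snora34 came next, at -0.73 and -0.60 with an adjusted p of 1 for both in limma. Snord8 is the shortest tested member and overlaps Gm26590 on the other strand.

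The 87 members under the condition carried values that the deposited bounds do not separate. Their highest value in any library was 1.30 adjusted TPM, and the upper bound was at the median 676 times the lower. For all 87, a single value lay within the intervals of all 12 libraries, as for 86.5% of the other genes under the condition. The same held for 6 of the 39 tested members (15.4%) and for 2.88% of the other tested genes. Replicates nevertheless agreed closely, with a median SD within groups of 0.14 on the log2 scale. Snord64, a C/D RNA of the imprinted region of chromosome 7, had 0.0416, 0.0335 and 0.0286 in female T and 0.0132, 0.0122 and 0.0127 in male T cells, with upper bounds of up to 0.427 over all libraries. Fitted without any condition on low values, 56 of the 87 passed between B and T cells, 53 and 56 between the sexes in B and T cells and 55 for the difference of the sex effects, where 59.8%, 26.7%, 25.8% and 27.2% of all 41128 genes passed. Snord107 and the identical Snord116l1 and Snord116l2 from the same imprinted region had no value above 0.00364, and members named Snord113, Snord114 or Snord115 were not analysed here.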

How the data were processed

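Expression of 41128 genes was measured by strand-specific total RNA sequencing in 12 libraries from mouse spleen lymphocytes. The signal values, as deposited by the authors, are adjusted TPM with a lower and an upper bound for each library. The submitters' processing notes name Trim Galore, FastQC, STAR and the build mm10. How the TPM were estimated and adjusted, and what level the interval has, is not given in the sources used here, and neither is the sequencing depth, so precision was read from the bounds and from the spread between libraries. Library totals were not equal, and the values are not counts.

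Values were taken to log2(adjusted TPM + 1), which understates fold changes of low genes, and genes with at least 1 in at least 3 libraries (12520 genes) were tested with limma 3.58.1 in R 4.3.3, with a mean-variance trend, 1 coefficient per group and Benjamini-Hochberg adjustment over all tested genes at a threshold of 0.05. The contrasts were B minus T averaged over the sexes, females minus males within each cell type, and the difference between these sex effects. B minus T within each sex was added after the values were seen. Groups came from the labels, in which the libraries are numbered 1 to 3 in B cells and 4 to 6 in T cells in each sex. Within each cell type the sexes also differ in a further digit of the library identifiers, whose meaning is not stated. Sex and that digit cannot be told apart within a cell type. Same-numbered female and male libraries deviated together in T cells (correlations of 0.72, 0.55 and 0.52 over all tested genes, and 0.88, 0.77 and 0.69 over the members). The main fit did not pair them, and a fit with the number as a block was an alternative. B against T thus counted the T libraries as independent, though those of the same number may not be. The effect of this on its SE and p was not tested. The fit was also run on simulated data with independent noise in each library, which cannot show how it behaves where libraries deviate together.

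Gene types, coordinates, host genes and sequences came from GENCODE M21 (GRCm38), which matched all 126 members and 40254 of 41128 genes. The host was the shortest gene of another name on the same strand that contains the member. Near-identical copies were searched with blastn 2.17.0+ among annotated transcripts only. Python 3.11.15, pandas 2.3.3 and matplotlib 3.10.9 were used. Genes named were the 3 of highest mean in each class, the 3 of smallest p for the difference between sex effects, called members without overlap of the groups or called between the sexes, RNAs of precursor cleavage, the imprinted and Rpl13a clusters and all tested scaRNAs. The members and lists were chosen with earlier results of these data known. Alternatives are under the closing heading on processing, and those that use other small RNAs were added after the values were seen.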

Additional observations from a re-analysis of the deposited data

Results flagged for a closer look

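The estimated sex effect of Snord8 had opposite signs in B and T cells. The female minus male log2 difference in B cells minus that in T cells was -1.87 (unadjusted p = 0.0011, adjusted p = 0.69 in limma), because females were below males in all B libraries and above them in all T libraries. The adjusted p did not pass the threshold. The values of Snord8 were at most 7.27 adjusted TPM. A digit of unstated meaning in the library identifiers follows the same pattern over the groups and cannot be told apart from this difference.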

How the results depend on the processing

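Of the comparisons, the count of members called between B and T cells (4) depended most on the processing. It was 58 of 126 without a filter on low values, of which 2 were among the 39 tested above, 2 with median-ratio scaling, 15 with the same total over all genes (4 higher in B and 11 in T cells), 0 with the same total over protein-coding genes, 2 with robust variances, 20 with library weights, 1 with a minimum log2 fold change of 1, 18 without the 4 libraries low in small RNAs and 10 with the small RNA covariate. Leaving out 1 library at a time gave 2 to 14 calls, with 14 without male T 4, 10 without male B 3 (1 of them higher in B cells), 9 without female B 2 and 8 without female T 4. These scalings moved the median of all genes from -0.09 to 0.01, 0.25 and 0.16. The counts for the sexes in B and T cells and for their difference, 0 each, became 53, 56 and 56 without a filter and 2, 1 and 1 with the same total over all genes, and stayed at 0 when 1 library was left out and in every other alternative. Except for the fits without a filter or with fewer libraries, whose construction changes what is tested, the cause was not tested.

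Of the named members, Scarna2 reversed to 0.20 with the same total over all genes and 0.10 over protein-coding genes, and Scarna6 to 0.0098 over all genes and 0.10 with the small RNA covariate. Scarna3a reversed to -0.57 with library weights and -0.10 without the 4 libraries, Snord17 to -0.91 with library weights, and Snord22 to 0.64 with the covariate. Leaving out 1 library gave -0.19 to 0.53 for Scarna3a, -0.37 to 0.64 for Snord17 and -1.29 to 0.25 for Snord22. The other members named by the rule, and Snora24, kept their direction in all alternatives run. Of those mentioned outside the rule with a value near 0, Snora21 went to -0.23 without the 4 libraries, Snora31 to 0.03 without them and 0.06 with the covariate, and Snora43 to 0.17 with the covariate.

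Same-numbered B libraries did not deviate together (correlations of -0.17, -0.04 and -0.34 over all genes, and -0.23, 0.08 and -0.57 over the members). The labels do not say whether they share more than a number. With the replicate block the counts for the sexes and for their difference stayed at 0. B and T libraries share no number, so B against T was not fitted with the block and counted all libraries as independent. The depth of the libraries is unknown, so no limit from it can be given.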
